A study of Mustela putorius furo with 8 samples.

Results

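Basal and squamous keratins were followed in ferret pancreatic ductal epithelia as these polarized in culture. The genes are KRT4, KRT5, KRT15 and KRT16, which were chosen by name as 4 of the 27912 gene rows of the count matrices. KRT4, KRT5 and KRT15 have rows of their own. No row carries the name KRT16, and a table of the study pairs that name with the row LOC101679442, so its values are given under this identifier. The pairing was not checked here, and keratins have near-identical copies, so reads of LOC101679442 could belong in part to another keratin.

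Wild-type (WT) and cystic fibrosis (CF) cultures were compared, the latter from ferrets homozygous for a CFTR knockout. Ductal cells of newborn ferrets of each genotype were expanded by serial passage, pooled over donors, and grown at an air-liquid interface (ALI) for 2, 5, 7 or 9 days before droplet single-cell RNA sequencing. Each genotype and day was 1 library, 8 in all with 32945 retained cells, so differences between libraries carry no replicate check and no test was made. The intervals given cover counting error only, at 95%, and donors of a pool cannot be told apart. Levels are CPM, the unique molecular identifiers (UMIs) of a gene per 1000000 UMIs of a library.

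Keratins build the intermediate filaments of epithelial cells as pairs of a type I and a type II chain. KRT5 (type II) and KRT15 (type I) are known from the basal layer of stratified epithelia, where the transcription factor TP63 is active. KRT4 (type II), with its type I partner KRT13, is known from the layers above the basal cells of moist squamous linings such as the oesophagus. KRT16 (type I) is known for its induction in wounded and hyperproliferative epithelium. Normal pancreatic duct is known instead for the simple keratins KRT7, KRT8, KRT18 and KRT19.

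The RefSeq table of assembly ASM1176430v1.1, the build of the matrices, lists all 4 rows as protein-coding genes, with the chromosome as Unknown. KRT15 spans positions 553070 to 557406 and LOC101679442 positions 636350 to 650630 there. KRT4 spans positions 3135046 to 3141703, and KRT5 spans positions 3404301 to 3410416.

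Libraries held 1607 to 6224 retained cells and 34735952 to 114585136 UMIs, with a median of 14949 to 23427 UMIs per cell. Depth was spread the widest in CF at day 7, with 411 of its 1607 cells under 3000 UMIs. Pairs of libraries shared 1 to 14 cell barcodes. CFTR was counted at 6.57 to 29.5 CPM in WT and at 2.50 to 11.4 CPM in CF. It was lower in CF at every day, and whether its tags lie in the disrupted part of the gene is not given in the sources used here. Summed markers of endothelial and endocrine cells stayed at or under 0.26 CPM in every library, and the mature acinar list, of which 1 of 5 genes has a row, stayed at or under 0.07 CPM. Fibroblast markers summed to 1.53 to 29.97 CPM, highest in the CF day 7 library, and immune markers to 3.89 to 20.9 CPM, highest in the CF day 2 library. Their part in the results was not tested.

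The basal keratin KRT5 kept almost the same level in both genotypes while it declined. In WT it was counted at 1077, 626, 739 and 364 CPM on days 2, 5, 7 and 9. In CF it was counted at 887, 548, 647 and 370 CPM on the same days. Both genotypes dipped at day 5, came up at day 7 and were lowest at day 9. The CF level was 0.824 times the WT level at day 2 (interval 0.817 to 0.831), 0.876 at day 5, 0.875 at day 7 and 1.02 at day 9 (0.998 to 1.04). These log2 differences lay between -0.28 and 0.02, with the sign at day 9 turning to -0.10 under TMM scaling. From day 2 to day 9 the level fell to 0.338 times in WT and to 0.417 times in CF. The step from day 5 to day 7 was 1.18-fold in each genotype.

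KRT15, the other basal keratin, was lower in CF on every day. Its WT levels were 131, 27.9, 34.1 and 16.8 CPM on days 2, 5, 7 and 9. Its CF levels were 17.4, 10.1, 4.09 and 1.60 CPM. The highest CF level thus lay close to the lowest WT level. WT exceeded CF by 7.51-fold at day 2 (7.15 to 7.90), 2.77-fold at day 5 (2.55 to 3.01), 8.33-fold at day 7 (7.04 to 9.93) and 10.5-fold at day 9 (8.39 to 13.3). A level at least 2-fold lower in CF on all 4 days was reached by KRT15 alone of the 4 keratins, and by 1.6% of the 8698 genes that reached 10 CPM in at least 1 library. Between day 2 and day 9 KRT15 fell 7.79-fold in WT and 10.9-fold in CF.

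KRT4, the suprabasal keratin, stayed within 2-fold of the WT level in CF at days 2 and 5 and fell far below it afterwards. WT libraries held 78.6, 27.9, 65.8 and 52.1 CPM on days 2, 5, 7 and 9. CF libraries held 50.03, 20.2, 7.80 and 3.28 CPM. The WT level dipped at day 5 and came back, while the CF level dropped at each step. The CF level was 0.637 times that of WT at day 2 (0.615 to 0.659) and 0.723 times at day 5 (0.678 to 0.771). WT then exceeded CF 8.44-fold at day 7 (7.47 to 9.57) and 15.9-fold at day 9 (13.6 to 18.7). From day 5 to day 7 KRT4 rose 2.36-fold in WT and fell to 0.387 times in CF. Between day 2 and day 9 it fell to 0.663 times in WT and 15.3-fold in CF (13.1 to 17.9).

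LOC101679442, the row paired with KRT16, moved the other way. It was counted at 2.60, 54.3, 98.6 and 213 CPM in WT on days 2, 5, 7 and 9. In CF it was counted at 12.4, 57.0, 279 and 330 CPM. Levels climbed at each step in both genotypes. CF exceeded WT 4.78-fold at day 2 (4.21 to 5.44), 1.05-fold at day 5 (1.01 to 1.09), 2.83-fold at day 7 (2.75 to 2.92) and 1.55-fold at day 9 (1.52 to 1.59). The WT level was 81.7-fold higher at day 9 than at day 2 (72.9 to 92.0), and the CF level 26.5-fold (25.1 to 28.1).

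**Figure D1:**
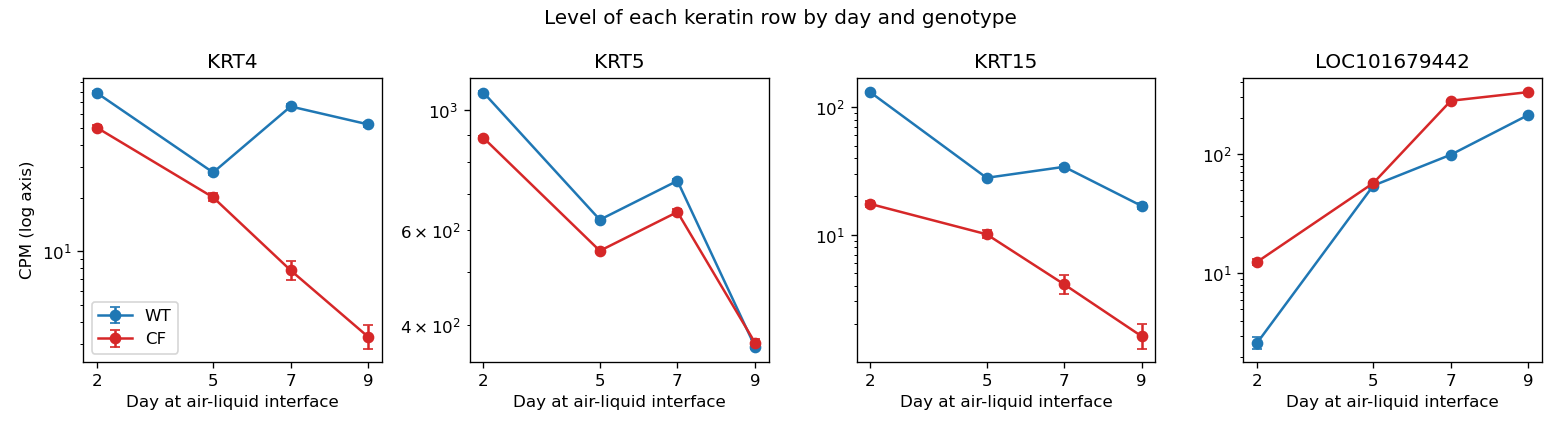
CPM of each keratin row (log axis, a separate scale per panel) against the day at ALI, with WT in blue and CF in red. Points are single libraries and bars are 95% Poisson intervals, and KRT4 drops from 50.03 to 3.28 CPM in CF while WT stays between 27.9 and 78.6 CPM.

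Of the 16 differences between CF and WT, 6 were at least 2-fold lower in CF and 2 at least 2-fold higher on the log2(CPM + 1) scale. The lower ones were KRT15 on all 4 days and KRT4 on days 7 and 9, and the higher ones were LOC101679442 on days 2 and 7. Over all 8698 genes, 9.05% passed 2-fold in either direction at day 2, 7.22% at day 5, 8.53% at day 7 and 7.5% at day 9. At day 9, 3.92% of genes were 2-fold lower in CF, KRT4 and KRT15 among them. Leaving out day 7, with its uneven CF library, the counts were 4 lower and 1 higher. Over time, KRT5 and KRT15 passed 2-fold downward in WT, as 6.07% of genes did, and KRT4, KRT5 and KRT15 did so in CF, as 3.5% of genes did. LOC101679442 passed 2-fold upward in both, where 9.99% of genes did so in WT and 6.91% in CF. Fewer cells with a keratin and less of its RNA per cell cannot be told apart in these sums, which the cells themselves address next.

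For shares of cells with a UMI of a keratin, 3000 UMIs were drawn from each cell, and the 39 to 411 cells of a library that had fewer did not enter. KRT5 was found in 72.1% of WT cells at day 2, 57.7% at day 5, 53.1% at day 7 and 32.7% at day 9. Its CF shares were 76.0%, 60.0%, 65.0% and 50.4% (48.3 to 52.5). The day 9 library of CF thus had a larger share of KRT5 cells than that of WT (31.5 to 34.0), at nearly the same summed level. In the cluster of each library with the fewest such cells, the KRT5 share was 0% to 12.1%, which is given as a reading of the background since no deposited class lacks keratins.

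KRT15 was found in 27.1% of WT cells at day 2 and in 4.38% at day 9. In CF it was found in 5.65% at day 2, 3.03% at day 5, 0.920% at day 7 and 0.486% at day 9 (0.243 to 0.867), against 0% to 1.27% in the lowest cluster of a library. The CF shares at days 7 and 9 rest on 11 cells each. The lowest clusters of those 2 libraries had 0 of 88 and 0 of 473 cells, which allow a share of up to 3.41% and 0.634%, so that these CF shares were not separated from background at this depth. The KRT4 share in WT was 13.5%, 5.16%, 8.22% and 8.43% on the 4 days. In CF it was 8.88%, 4.44%, 2.34% and 0.662%, with 0% to 1.94% in the lowest clusters. The lowest clusters of the CF libraries had 0 of 62 cells at day 5, 0 of 128 at day 7 and 0 of 91 at day 9, which allow up to 4.84%, 2.34% and 3.30%. The CF shares at days 5, 7 and 9, the last resting on 15 cells, were thus not separated from background at this depth. These limits follow from the few cells of the lowest clusters. With 6000 UMIs per cell the CF shares were 7.86%, 3.79% and 1.41% on days 5, 7 and 9. The lowest clusters then had 0 of 62, 0 of 127 and 0 of 266 cells. The day 5 share thus lay above the 4.84% that 0 of 62 cells allow. Taken the same way, the day 7 share (2.76 to 5.07) and, narrowly, the day 9 share also lay above their limits. The lower end of the day 9 interval (0.952 to 2.00) did not. For LOC101679442 the WT share was 0.749%, 10.4%, 14.2% and 18.3%. Its CF share was 3.90%, 10.5%, 32.9% and 38.6%, with 0% to 1.75% in the lowest clusters. The WT share at day 2 rests on 46 cells, and the lowest cluster of that library had 0 of 682 cells, which allows up to 0.440%.

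The deposited classes (ductal, acinar, centroacinar and others) were named by the authors separately for each genotype, and KRT5, KRT15 and KRT16 were among the genes read for these names. A class level is therefore a description. In WT, KRT5 was high under the ductal name, at 1178, 951, 1219 and 809 CPM on days 2, 5, 7 and 9, against 57.7, 11.4, 24.0 and 13.01 CPM in centroacinar progenitors. At day 2 the WT acinar cells (1503 CPM) and proliferating acinar cells (1432 CPM) were higher still. WT centroacinar cells held 385 CPM at day 2, in 29 cells, and 103, 473 and 87.1 CPM afterwards. In CF it was high under the centroacinar name, at 1790.3, 831, 989 and 457 CPM, while CF ductal cells held 810, 341, 169 and 72.1 CPM. CF centroacinar progenitors, at 78.0, 75.7, 28.0 and 12.4 CPM, were low as in WT. Names did not hold 1 level, since CF cluster 7, also named centroacinar, had 12.8 CPM of KRT5. Ductal cells were above centroacinar cells in WT and below them in CF on all 4 days, and 14 of the 71 clusters had leading genes that went against their name or were very shallow. For this reason clusters are described by number below.

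KRT4 at day 9 was counted at 2.90 CPM in WT ductal cells, 90.0 CPM in WT centroacinar cells and 70.1 CPM in WT centroacinar progenitors. In CF at day 9 it was counted at 4.105, 3.15 and 3.29 CPM in the same order. The day 9 level of CF was thus below that of WT under the centroacinar and progenitor names and not under the ductal name. At day 2 the CF cells had held 51.5, 9.43 and 89.3 CPM in that order.

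Over the 39 WT and 29 CF clusters of at least 50 cells, KRT5 ranged from 9.41 CPM in WT cluster 32 to 1936 CPM in WT cluster 4, and from 12.8 CPM in CF cluster 7 to 2046 CPM in CF cluster 28. Most WT cells of cluster 4 (99.5%) came from day 2. KRT5 was over 100 CPM in 27 of the WT and 24 of the CF clusters. KRT15 was highest in WT cluster 37, a set of 90 cells with 478 CPM, and in CF cluster 2 with 41.7 CPM. KRT4 was highest in WT cluster 12 (235 CPM) and CF cluster 22 (97.5 CPM), and 1 cluster of each genotype held no KRT4 UMI.

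LOC101679442 was the most concentrated in few cells. WT cluster 8 held 42.9% of its WT UMIs in 3.75% of the cells, at 975.5 CPM. At day 9 this cluster made up 14.8% of WT cells with 984 CPM, and the other WT cells of that day held 61.5 CPM (59.7 to 63.3). CF clusters 3 and 11 made up 31.6% of day 9 cells with 851 CPM, and the other CF cells held 83.5 CPM (80.4 to 86.6). Genes known from fibroblasts and matrix were among those that led the CF clusters, with COL1A1, COL1A2 and ACTA2 in cluster 11 and SPARC and VCAN in cluster 3. The 6 fibroblast markers summed to 52.1 CPM in these CF cells (21.0 in cluster 3, where 3 of the 6 were at 0, and 104 in cluster 11, where none was) and to 6.07 CPM in the other CF cells of day 9, where DCN was at 0. In WT they summed to 1.08 CPM in cluster 8 and 6.71 CPM outside it, with COL3A1 and LUM at 0 in both. VIM was higher inside the clusters in both genotypes, at 633 against 85.4 CPM in CF and 203 against 23.5 CPM in WT. KRT19, of duct cells, was at 4039 CPM inside and 3997 CPM outside in CF, and at 5712 and 3391 CPM in WT. The part of fibroblast genes in the LOC101679442 levels was not tested. With these clusters left out of both genotypes, which were chosen after their values were seen, the log2 difference of CF from WT at day 9 was 0.44 in place of 0.63. WT cluster 38 was higher still, at 1212 CPM, but held 60 cells with a median of 2726 UMIs.

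WT clusters fall apart by SOX2, a transcription factor of foregut and squamous progenitors that was nearly absent in CF (at most 0.0864 CPM). Clusters under 10 CPM of SOX2 are called SOX2-low here, 12 of the 41 WT clusters, and the other 29 SOX2-high. KRT4 in SOX2-low WT cells was 4.49, 3.62, 5.10 and 2.17 CPM on days 2, 5, 7 and 9. In SOX2-high WT cells it was 89.5, 48.4, 97.8 and 74.0 CPM. Against the SOX2-low cells alone, CF was 3.22 higher on the log2 scale at day 2, 2.20 at day 5, 0.53 at day 7 and 0.43 at day 9. At days 7 and 9 CF was thus not below SOX2-low WT cells in KRT4. Those WT cells held only 2.17 to 5.10 CPM over the days, so this comparison leaves little room for a deficit.

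KRT15 in SOX2-low WT cells was 24.0, 35.9, 28.6 and 4.45 CPM, and in SOX2-high WT cells 147, 21.2, 37.0 and 22.2 CPM. Against SOX2-low cells the CF level was lower by log2 differences of -0.44, -1.74, -2.54 and -1.07 on days 2, 5, 7 and 9. The deficit thus passed 2-fold at days 5 and 7, and not at day 2. At day 9 it passed too, but resting largely on WT cluster 8. The day 9 call passed narrowly, on 115 UMIs in SOX2-low cells and 80 UMIs in CF. WT cluster 8, a SOX2-low cluster with 98.9% of its cells from day 9, held 93 KRT15 UMIs over all days, at 6.61 CPM. The day 9 call was not recomputed without it, so a day 9 deficit against the other SOX2-low cells was not shown. KRT5 was 782, 728, 739 and 522 CPM in SOX2-low cells and 1120, 539, 739 and 295 CPM in SOX2-high cells. LOC101679442 was 7.49, 33.8, 84.9 and 562 CPM in SOX2-low cells and 1.88, 71.7, 106 and 59.4 CPM in SOX2-high cells. Its day 9 level in SOX2-low WT cells was above that of CF, at a log2 difference of -0.77. WT cluster 8 is a SOX2-low cluster and made up 801 of these 1510 cells. The other SOX2-low cells held 71.8 CPM (67.1 to 76.8), beside 83.5 CPM in CF cells outside CF clusters 3 and 11.

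**Figure D2:**
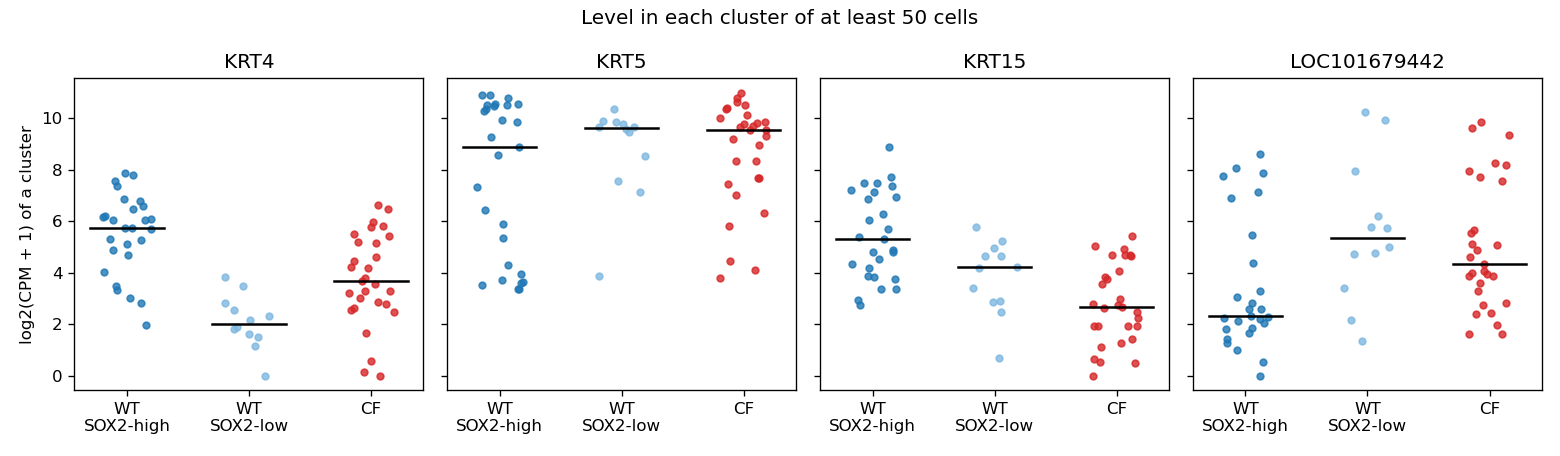
log2(CPM + 1) of each keratin row in each cluster of at least 50 cells, for SOX2-high WT, SOX2-low WT and CF clusters, with bars at medians. The median KRT4 level is 53.1 CPM over 27 SOX2-high clusters, 3.10 CPM over 12 SOX2-low clusters and 11.7 CPM over 29 CF clusters.

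Co-detection asked which keratins were found in the same cells. The number of thinned cells with both was set against the number expected if the shares were independent. Intervals of these ratios take the joint count as Poisson and ignore the fixed number of cells with each keratin. They therefore run wide where nearly all cells with 1 keratin also have the other. KRT5 and KRT15 met more often than expected in all 8 libraries, 1.14 to 1.39 times in WT and 1.23 to 1.62 times in CF. The CF values at days 7 and 9 rest on 10 of 11 and 9 of 11 cells with KRT15, and their intervals, 0.670 to 2.57 and 0.743 to 3.08, include 1. Thinned to 1500 UMIs, the CF day 9 library had 1 such cell where 2.56 were expected. KRT5 was also found in most cells with LOC101679442, from 79.8% of them in CF at day 9 to 95.7% in WT at day 2. Over the 8 libraries this was 1.15 to 2.56 times the expected number. The day 2 intervals, 0.964 to 1.78 in WT and 0.974 to 1.35 in CF, include 1 but are of the wide kind named above. In WT at day 2, 44 of 46 cells with LOC101679442 had KRT5 (95.7%), beside 72.1% of all cells. In CF at day 2 it was 152 of 174 (87.4%), beside 76.0% of all cells. In WT at day 9, 809 of the 967 cells with LOC101679442 had KRT5 as well, where 316 were expected.

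KRT4 was found with KRT5 and with LOC101679442 less often than expected in WT. Cells with KRT4 and KRT5 were 0.771, 0.331, 0.592 and 0.179 times the expected number in WT on days 2, 5, 7 and 9. At day 9, 26 such cells were found where 146 were expected. In CF the values were 0.831, 0.889, 0.933 and 1.06, with 8 cells at day 9 where 7.56 were expected. The CF intervals at days 5, 7 and 9 were 0.685 to 1.14, 0.544 to 1.49 and 0.457 to 2.09. On these days the CF KRT4 shares were not separated from background at this depth. The ratios there therefore cannot be set against those of WT at 3000 UMIs. At 6000 UMIs the CF ratio was 0.940 at day 5 (0.791 to 1.11), beside 0.328 in WT (0.259 to 0.410). At day 7 it was 1.06 in CF (0.732 to 1.49, 33 cells) and 0.675 in WT (0.585 to 0.774). At day 9 it was 0.857 in CF (0.480 to 1.41, 15 cells) and 0.333 in WT (0.264 to 0.415). The WT value at day 9 was 0.333 when cells were thinned to 6000 UMIs and 0.468 without thinning, and that of day 5 was 0.530 without thinning. KRT4 with LOC101679442 was found in 10 cells of WT day 9 where 81.5 were expected. Without thinning it was 121 cells where 306 were expected, 0.395 times. The WT day 2 ratio of this pair went from 0.161 to 0.706 without thinning. Summed over the WT days at 3000 UMIs, KRT4 and LOC101679442 met at 0.243 times the expected number, and KRT4 and KRT15 at 1.09 times. In CF, KRT4 and LOC101679442 met in 28 cells where 43.0 were expected, 0.651 times. By day the CF ratio was 0.647 at day 2 (0.310 to 1.19), 1.11 at day 5 (0.608 to 1.86), 0.326 at day 7 (0.0672 to 0.953) and 0.173 at day 9 (0.00437 to 0.962), the last from 1 cell. Thinned to 1500 UMIs, the CF interval at day 7 reached 1.03 and the day 9 ratio was 1.26, from 3 cells. Thinned to 6000 UMIs, the CF ratio was 0.491 at day 7 (0.225 to 0.933) and 0.224 at day 9 (0.0462 to 0.655). Without thinning it was 0.904 at day 7 (0.679 to 1.18) and 0.439 at day 9 (0.264 to 0.685).

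Taking the expected number within each cluster moved some of these ratios closer to 1. KRT5 with LOC101679442 was then 1.03 times in WT and 1.01 times in CF, and KRT4 with KRT5 0.974 and 1.01 times, summed over the days. KRT5 with KRT15 came to 1.01 in WT and 1.04 in CF, and KRT4 with LOC101679442 to 0.950 and 0.989. KRT4 with KRT15 moved away from 1, from 1.09 to 1.12 in WT and from 1.02 to 1.29 in CF. The CF value rests on 27 cells where 21.0 were expected. KRT15 with LOC101679442 went from 1.01 to 0.826 in WT, and in CF from 1.102 to 1.05. The WT ratio of this pair moved with depth. At day 7 it was 0.684 within clusters, but 0.860 at 1500 UMIs, 0.923 at 6000 UMIs and 1.02 without thinning. The clusters were built from the same genes, so this is a description. Cells with 3 of the 4 keratins made up 0.265% to 2.95% of thinned cells, and those with all 4 at most 0.0219%.

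**Figure D3:**
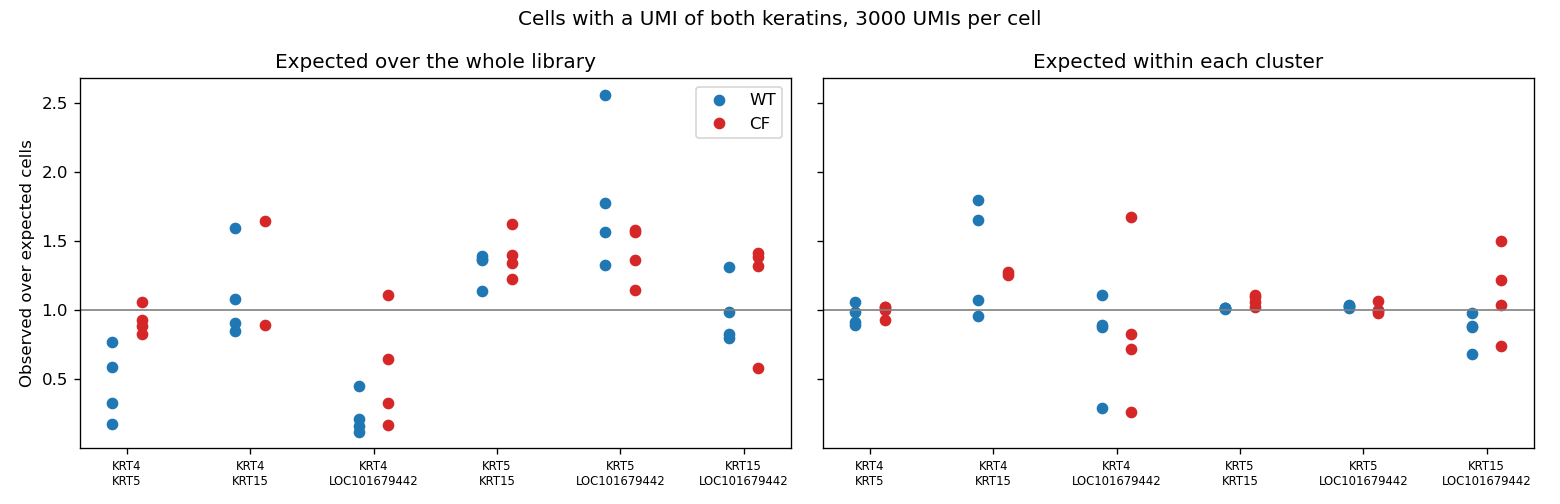
Observed over expected cells with a UMI of both keratins of a pair, for WT (blue) and CF (red) libraries, with the expected number taken over the library (left) or within each cluster (right). The 2 points with under 3 expected cells are left out, and KRT5 with LOC101679442 reaches 2.56 on the left in WT while its values on the right lie near 1.

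Over 39 WT clusters, KRT5 had a Pearson correlation of 0.95 with TP63, the basal transcription factor, and over 29 CF clusters one of 0.94, where Spearman values were 0.77 and 0.80. By Pearson correlation, the genes most like KRT5 were CDH3, encoding P-cadherin, at 0.97 in WT, and LOC101681572 at 0.98 in CF. KRT15 was most like LOC101672959 in WT (0.99) and ASCL2, a transcription factor of stem cells, in CF (0.89). KRT4 was most like DBNDD2 in WT (0.88) and GUCA2A, encoding guanylin, in CF (0.85). LOC101679442 was most like PDGFB, a platelet-derived growth factor chain, in WT (0.95) and CHST15, a sulfotransferase, in CF (0.96). By Spearman correlation some first genes differed, such as CAPG for KRT5 in WT (0.94) and MTCH2 for KRT4 in CF (0.88). KRT4 and LOC101679442 ran against each other, at -0.66 in WT and -0.68 in CF (Spearman -0.60 and -0.54). Clusters of a genotype share libraries and days and differ in depth, so these values describe the tables.

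Among other keratins, the row LOC101680039, which a study table pairs with KRT13, was lower in CF than in WT on every day, as KRT4 was. It was counted at 2753, 1313, 1325 and 1606 CPM in WT and at 1582, 587, 240 and 254 CPM in CF. WT exceeded CF 1.74-fold at day 2 and 6.32-fold at day 9 (6.20 to 6.43). From day 7 to day 9 it rose 1.21-fold in WT and 1.06-fold in CF, while KRT4 fell to 0.792 and 0.420 times. It too was low in SOX2-low WT cells, at 183 CPM at day 9 against 2229 CPM in SOX2-high cells. Its correlation with KRT4 over clusters was 0.74 in WT and 0.72 in CF. KRT10, a type I keratin of cornifying layers, rose over the days in CF from 46.5 to 100 CPM and was 2.08-fold higher than in WT at day 9. These 2 rows were the measured ones of the 13 rows listed for partner and other stratified keratins. The list named 20 keratins. No row was found under the names KRT6A, KRT6B, KRT6C, KRT14, KRT17, KRT75 or KRT76, so no level could be given to them. The row LOC101679740, listed at positions 611317 to 615762, has no paired name, and what it encodes was not checked. It was counted at 64.2, 443, 537 and 282 CPM in WT and at 279, 625, 977 and 669 CPM in CF. Over clusters its correlation with KRT5 was 0.81 in WT and 0.86 in CF, and with LOC101679442 0.86 in each.

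Of 4 simple keratins measured, only KRT18 passed 2-fold between the genotypes, lower in CF at day 5 (263 against 567 CPM), as 4.69% of all genes were, and its log2 differences on the other days were -0.65, -0.66 and -0.64. KRT19 lay between 3772 and 5113 CPM in all 8 libraries. KRT7 was counted at 1145, 2771, 2216 and 2493 CPM in WT and at 2133, 2752, 3471 and 3595 CPM in CF. KRT8 ranged from 861 to 1541 CPM.

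**Figure D4:**
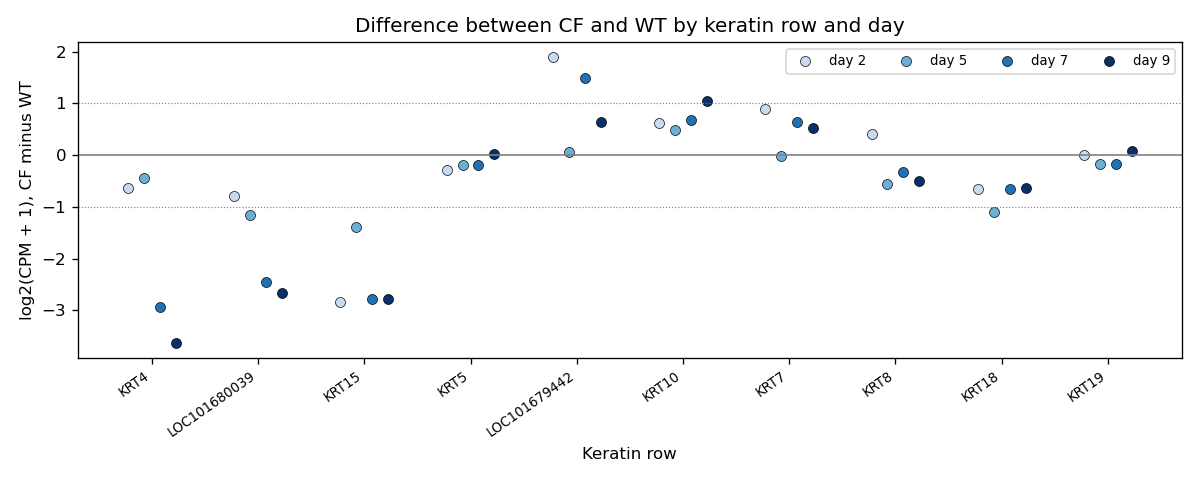
Difference of CF from WT in log2(CPM + 1) for each keratin row (columns) and day (shade), with dotted lines at 2-fold. KRT4 and LOC101680039 move from -0.64 and -0.80 at day 2 to -3.63 and -2.65 at day 9, while KRT5 and KRT19 stay near 0.

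Other genes of basal cells were counted beside KRT5 and KRT15. Of 20 measured basal cell genes, 6 were 2-fold higher in CF at day 7 and 6 at day 9, where 4.87% and 3.58% of all genes were. On each of these days 1 was lower, where 3.66% and 3.92% of all genes were, and 2 were lower at day 5, where 4.69% were. Their median log2 difference was 0.06, -0.28, 0.71 and 0.74 on days 2, 5, 7 and 9, beside 0.00, -0.05, 0.12 and 0.08 over all 8698 genes. TP63 itself was counted at 86.4, 58.3, 58.7 and 29.4 CPM in WT and at 72.0, 83.4, 101 and 60.8 CPM in CF. DLK2, a Notch ligand relative, was counted at 0.389 CPM in WT and 4.199 CPM in CF at day 9. DST, a hemidesmosomal linker, was counted at 309 and 720 CPM at that day. TRIM29 differed by a log2 value of 0.07 at day 9. BCAM, a laminin receptor, was 2-fold lower in CF on all 4 days, as 1.6% of all genes were. It was the lower one at day 9, with 90.4 CPM in WT and 1.78 CPM in CF.

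Desmosomes tie keratin filaments to the cell border. Of 7 measured genes, DSC2 and DSG3 were 2-fold lower in CF on all 4 days and DSC3 was 2-fold higher on all 4, as 1.6% and 1.22% of all genes were. DSG3 was counted at 23.0 CPM in WT and 5.999 CPM in CF at day 9, DSC3 at 18.1 and 55.5 CPM, and DSC2 at 30.8 and 0.120 CPM. DSG2 was counted at 153 and 126 CPM.

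The squamous differentiation genes that were measured did not share 1 direction. The list named 36 genes, of which 29 had a row and 13 reached 10 CPM in at least 1 library. Rows under that limit reached at most 6.65 CPM (SERPINB2), with IVL at most 0.244 CPM and SBSN at most 0.928 CPM. No row was found for SPRR1A, SPRR1B, SPRR2A, SPRR3 or KRTDAP, among others. Of 13 measured, 2 were 2-fold lower and 2 higher in CF at day 2, and 3 were lower and 2 higher at day 9. Of all genes, 4.25% were lower and 4.79% higher at day 2, and 3.92% lower and 3.58% higher at day 9. SCEL (sciellin, a cornified envelope precursor) was counted at 107 CPM in WT and 24.7 CPM in CF at day 9, and the transcription factor KLF4 at 52.6 and 15.8 CPM. LY6D, a surface marker of stratified epithelia, was counted at 46.6 and 578 CPM, and MAL, an apical transport protein, at 43.8 and 325 CPM. The median log2 difference of the list was 0.22, 0.27, -0.09 and -0.20 on days 2, 5, 7 and 9.

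Of 3 other intermediate filament genes measured, VIM (vimentin, of mesenchymal cells) was higher in CF by 2.55 at day 7 and 2.28 at day 9 on the log2 scale, LMNA differed by 0.00 and LMNB1 by 0.82 at day 9. Cycling genes were counted because they also moved with the days. All 10 measured cycling genes fell 2-fold in WT between day 2 and day 9 and 9 of them in CF, as 6.07% and 3.5% of all genes did. In CF against WT, 9, 7, 8 and 0 of them were 2-fold lower in CF on days 2, 5, 7 and 9, where 4.25%, 4.69%, 3.66% and 3.92% of all genes were. CDK1 was counted at 34.7 CPM in WT and 12.7 CPM in CF at day 2, UBE2C at 70.3 and 30.9 CPM, MCM5 at 31.3 and 19.7 CPM and PCNA at 136 and 64.5 CPM. Thinned WT cells of day 2 with a cycling UMI held 1357 CPM of KRT5, against 1047 CPM in those without, and 56.9 against 80.6 CPM of KRT4. CF cells of day 2 held 1080 against 1046 CPM of KRT5 and 40.6 against 40.7 CPM of KRT4. KRT5 in CF was 591 against 609 CPM at day 5, 528 against 693 at day 7 and 432 against 403 at day 9. In WT it was 728 against 646, 942 against 747 and 449 against 363 CPM on these days, with overlapping intervals at day 9. KRT4 in WT was 12.4 against 30.5, 14.2 against 59.8 and 47.0 against 49.9 CPM. Cells with a cycling UMI held 17, 9 and 11 KRT4 UMIs there, and at most 6 in CF on these days. The part of cycling in the keratin levels was not tested.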

How the data were processed

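UMI counts per gene and cell were deposited by the authors, who made them with Cell Ranger 5.0.1 on the ferret build ASM1176430v1.1 with an extended annotation. Retained cells, clusters, classes and the percent of mitochondrial reads (deposited by the authors from Seurat under R 4.1.2, at most 20% per their methods, with DoubletFinder doublets removed and no batch correction) were used as given. The normalized table and the trajectory scores were not used. Counts were summed per library and divided by all UMIs (CPM). Differences are of log2(CPM + 1), and 2-fold was the limit of a call. Shares used cells thinned to 3000 UMIs. Intervals are exact (Poisson, conditional binomial, Clopper-Pearson) at 95% and assume independent UMIs. Genes named beside the 4 keratins were the 2 highest and 2 lowest of each list by mean difference, and the 5 most alike over clusters, of which the first is printed. TMM (edgeR 4.0.16) and DESeq2 1.42.0 gave scaling alternatives only. Python 3.11.15, scipy 1.17.1 and pandas 2.3.3 were used. Fold changes, the ratio intervals and co-detection over a library were tested on simulated data, and the other steps were not. The keratins, lists and the SOX2 division were chosen with earlier results of these data known. TP63, the numbered clusters and their leading genes were singled out after their values were seen. LOC101679442 was counted as the centroacinar marker KRT16 in the check of class names.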

Additional observations from a re-analysis of the deposited data

Results flagged for a closer look

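KRT4 and KRT15 moved in opposite directions in the 2 genotypes from day 5 to day 7. On the log2(CPM + 1) scale KRT4 changed by 1.21 in WT and by -1.27 in CF. KRT15 changed by 0.28 in WT and by -1.12 in CF. The WT change of KRT15 was under the 2-fold limit. It fell from 35.9 to 28.6 CPM in SOX2-low WT cells and rose from 21.2 to 37.0 CPM in SOX2-high ones. Each step compares 1 library with 1 library, and the difference between the genotypes was not tested. The CF day 7 library was also the one with the most cells under 3000 UMIs, and its part in these steps was not tested. With cells of at least 3000 UMIs alone, the counts of differences past 2-fold were the same, 6 lower and 2 higher in CF.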

How the results depend on the processing

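Of 208 recomputed log2 differences and changes, 189 kept their sign and 42 moved by over 1.5-fold. The numbers of differences past 2-fold between CF and WT, 6 lower and 2 higher, were the same with a pseudocount of 5 CPM, TMM, DESeq2 size factors, all deposited barcodes, or cells of at least 3000 UMIs. In the ductal class alone there were 10 lower, the log2 differences of KRT4 turned to 0.15 at day 7 and 0.39 at day 9 and that of LOC101679442 to -3.22 at day 7, and 0 keratins rose 2-fold in CF over time; the name falls on different clusters in the genotypes. Against SOX2-low WT cells alone there were 3 lower and 3 higher, with KRT4 turning to 0.53 at day 7 and 0.43 at day 9. The higher ones were KRT4 at days 2 (3.22) and 5 (2.20) and LOC101679442 at day 7 (1.71). Of the lower ones, KRT15 at day 9 (-1.07) rests on 115 UMIs in WT and 80 in CF. This call was not recomputed without WT cluster 8, which held 93 KRT15 UMIs over all days, so it was not shown outside that cluster. The next alternatives were chosen after seeing the data. Over days 2, 5 and 9 alone, 1 difference was higher. Without WT cluster 8, 3 were higher; leaving out the highest cluster of 1 genotype alone sets this direction. Class names by gene names as the files give them passed 58 clusters in place of 57, since WT cluster 8 failed through LOC101679442 alone; the WT ductal level of this row at day 9 was 128 CPM without that cluster and 488 CPM with it, against 480 CPM over all ductal clusters. More shared cells than expected were found in 26 of 48 pairs and libraries, and in 27 to 32 under other thinning depths or within clusters. Under TMM the median log2 difference over all genes shifted by -0.20 (day 7) and -0.12 (day 9). A fit that pairs WT and CF by day, with days as replicates, was not run. With CF KRT15 under 5 CPM at days 7 and 9, shares there were limited by depth.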
